A study of Mus musculus with 4 samples.

Results

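The 10 chemokine ligand genes of activated B cells were followed across 4 arrays: Ccl3, Ccl4, Ccl5, Ccl17, Ccl19, Ccl21a, Ccl22, Ccl25, Cxcl10 and Xcl1. The members were all array probes that the scanner files name by one of these 10 symbols, which gave 15 of 39429 probes and 9 of the 10 genes. No probe carried the name Ccl21a, and that gene was not analysed here. Ccl3, Ccl4, Ccl5 and Ccl22 gave at least 2-fold more signal on the arrays labelled Ackr4ko than on those labelled WT in both experiments. The same held for 1.28% of all tested genes, but the members were chosen with earlier results of these data known. The Ackr4 ligands Ccl19 and Ccl25 differed by 0.31 ± 0.32 and 0.13 ± 0.43 on the log2 scale (SE, n = 2 each). Of the other tested members, Ccl17 differed by -0.43 ± 0.43 and Xcl1 by 1.31 ± 1.00. The Ccl19 value is that of a probe that matches sequence before the RefSeq transcript start, so its signal is uncertain in origin.

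Chemokines are small secreted proteins that steer cell migration by binding G protein-coupled receptors. Ccl3 and Ccl4 are inflammatory chemokines that B cells secrete after their antigen receptor is engaged. Ccl22 and Ccl17 draw cells that carry CCR4, such as regulatory and helper T cells, towards activated B cells and dendritic cells. ACKR4 is an atypical receptor that scavenges CCL19, CCL21 and CCL25: it internalises them and does not couple to G proteins, which lowers their extracellular level.

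Spleen B cells, isolated by magnetic sorting, were activated in vitro until day 3 with antibodies to IgM (10 µg/mL), which engage the antigen receptor, and to CD40 (10 µg/mL), which mimic T cell help. Ackr4ko cells came from Ackr4-deficient male mice aged 73 and 71 days, and WT cells from C57BL/6 male mice aged 77 and 74 days, in experiments 1 and 2. Each of the 2 experiments had its own donors and 1 array per genotype, so n = 2 per genotype, and p-values measure only the spread between these arrays. RNA (50 ng per array) was labelled with Cy3 and hybridised to Agilent 1-colour arrays with 4 spots per probe.

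The genotype labels need a caution that applies to every direction below. The deposited value table lists 4 of its 4 columns under the other genotype of the same experiment: each matched that scanner array best, with a correlation across probes between 0.999 and 0.99997, where its own label's array gave 0.979 to 0.986. Directions follow the scanner files, arrays are called "labelled Ackr4ko" and "labelled WT", and every sign from the scanner files turns if the value table has the right labels. Ackr4 itself gave no array on which a probe was well above background (0 of 4), and cannot serve as a check of the labels. The array labelled WT of experiment 2 stood apart, with 6.24% of spots flagged as outliers against 1.79% to 2.12% on the other arrays and a highest local background of 292 against 61 to 76. The 10 B cell markers were well above background on all 4 arrays, with a summed signal of 358908 and 319256 on the arrays labelled Ackr4ko, against 428679 and 393147 on arrays labelled WT. In these bulk RNA samples, fewer cells of a type and less RNA per cell cannot be told apart.

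The probes that carry the result are shown by their first 30 bases, 5′ to 3′, as the scanner files give them.
Ccl3: catgaactgacaaatgtacaatagatgctt
Ccl4: tattatttatgttttagttataggacgcgt
Ccl5: tctcagctgctccgaggctctgcacagcaa
Ccl22: tggtattataagctatagttatatttatat
Xcl1: tcaccaaacgaggactaaaaatttgtgctg
Ccl19, from transcript base 22: aagctcacttgcacttggctcctgaacccc
Ccl19, from transcript base 126: ttcttgcgcacacagtctctcaggctcact
Ccl19, from transcript base 415: acctccagaccagctctgggtggatcgcat
Ccl25, from transcript base 953: gaggaacgagaggatagtgagtgtgtgaga
The Ccl3, Ccl4 and Ccl5 probes lie close together on chromosome 11 of mm9, at chr11:83461358-83461417 on the minus strand, chr11:83478052-83478111 on the plus strand and chr11:83339296-83339355 on the minus strand. The Ccl3 and Ccl4 probes start 16.7 kb apart, and those of Ccl5 and Ccl3 122.1 kb apart. The Ccl22 probe lies at chr8:97274709-97274768, 61.1 kb from that of Ccl17. Whether each probe lies in an exon, intron or UTR was not assessed, since no annotation of that build was used here.

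Promoters are given for a pair of ligands whose signal was higher on the arrays labelled Ackr4ko and for Cxcl10, which was not measurable. Each shows the 250 bases before the RefSeq transcript start on GRCm38.p6, in lower case with motif matches in capitals. Ccl3 covers chr11:83649379-83649628 on the minus strand, Ccl22 chr8:94745434-94745683 on the plus strand and Cxcl10 chr5:92348890-92349139 on the minus strand.
Ccl3: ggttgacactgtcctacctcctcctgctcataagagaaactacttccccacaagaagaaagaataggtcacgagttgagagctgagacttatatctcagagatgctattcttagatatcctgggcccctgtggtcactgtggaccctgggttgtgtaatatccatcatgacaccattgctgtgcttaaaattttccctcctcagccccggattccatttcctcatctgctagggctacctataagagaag
Ccl22: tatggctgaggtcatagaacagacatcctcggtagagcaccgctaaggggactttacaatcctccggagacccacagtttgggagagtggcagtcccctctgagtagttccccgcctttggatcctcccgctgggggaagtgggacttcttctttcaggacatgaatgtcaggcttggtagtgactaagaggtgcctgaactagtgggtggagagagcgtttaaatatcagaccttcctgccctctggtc
Cxcl10: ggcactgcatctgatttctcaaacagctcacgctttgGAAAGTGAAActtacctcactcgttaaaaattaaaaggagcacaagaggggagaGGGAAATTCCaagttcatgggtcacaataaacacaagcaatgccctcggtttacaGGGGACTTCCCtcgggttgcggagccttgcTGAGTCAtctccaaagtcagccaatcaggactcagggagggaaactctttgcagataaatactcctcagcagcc
The RefSeq promoter table held 8 of the 10 members, and Ccl4 and Ccl5 were not among them. Both strands were searched for the kappaB consensus, the AP-1 motif TGANTCA and the interferon-stimulated response element core, which occur in 7.25%, 6.75% and 2.98% of 32851 promoters of the same length. Cxcl10 held the kappaB consensus from base 159 to 150 and, in overlapping places, between bases 104 and 94 before the start. It also held the AP-1 motif from base 74 to 68, where it reads the same on both strands, and the response element core from base 213 to 204. Ccl19 held that core from base 208 to 199, and no searched motif was found in the windows of Ccl3, Ccl22, Ccl17, Ccl21a, Ccl25 or Xcl1. A match is a run of letters, not a shown binding site.

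Levels are log2 of the processed signal, scaled to each array's 75th percentile, averaged over the spots of a probe. A probe was called well above background on an array where at least 50% of its spots were, and tested where this held on at least 2 arrays. Of the 15 member probes, 6 were well above background on all 4 arrays, against 41.3% of all probes, and 5 on no array, against 43.5%. In all, 10 probes were tested, against 52.9%. Those seen on all arrays were the Ccl3, Ccl4 and Ccl22 probes, 2 of Ccl25 and 1 of the 3 of Ccl19. Of the 10 members, 8 had a tested probe, each represented by its brightest one, and 15967 genes were tested in all.

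**Figure D1:**
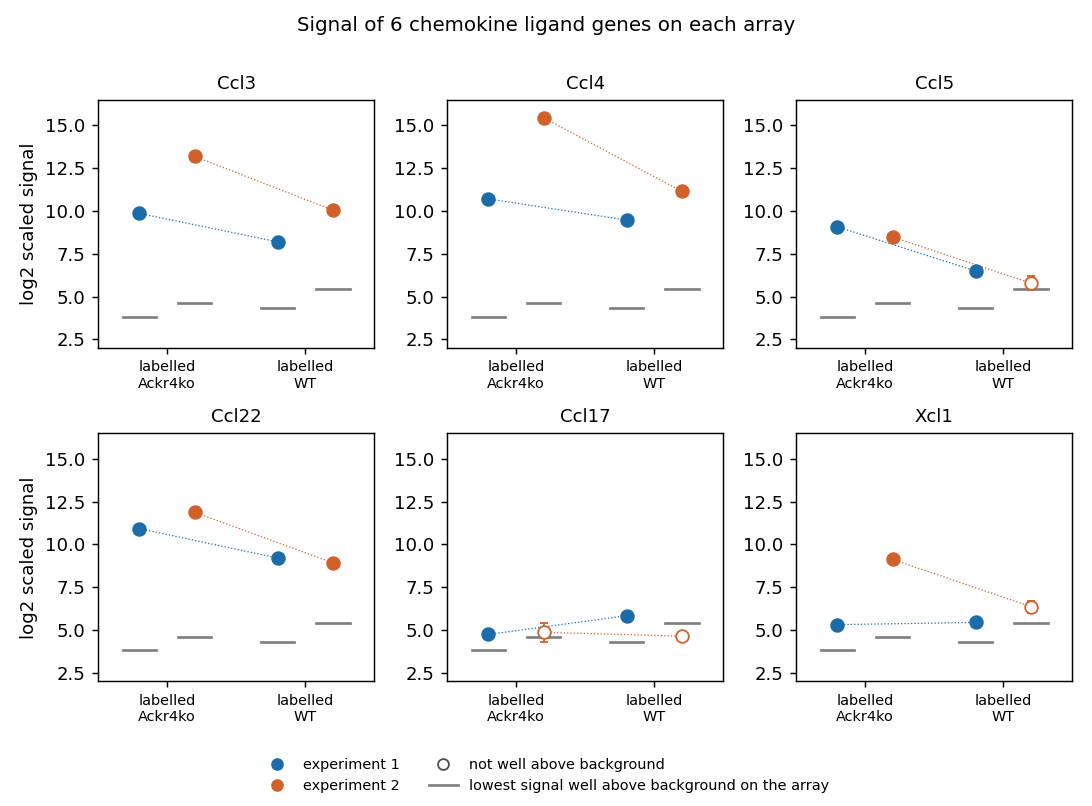
Log2 scaled signal of 6 members (y axis) on the arrays labelled Ackr4ko and WT (x axis), coloured by experiment, with the SD over spots as bars, open points where the probe was not well above background and a grey line at each array's lowest signal well above background. For Ccl5 and Ccl22 both Ackr4ko points lie above both WT points, whereas for Ccl3 and Ccl4 the Ackr4ko point of experiment 1 (9.86 and 10.71) lies below the WT point of experiment 2 (10.05 and 11.14).

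Ccl3, a ligand of CCR1 that attracts T cells and monocytes, had a level of 9.86 and 13.19 on the arrays labelled Ackr4ko, against 8.19 and 10.05 on those labelled WT (log2, experiments 1 and 2). Within an experiment the array labelled Ackr4ko was 3.17-fold and 8.83-fold higher, but the groups overlapped across experiments. The difference was 2.40 ± 0.97 on the log2 scale (SE, n = 2 each), with a limma adjusted p of 0.995 and an unadjusted p of 0.0364.

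Ccl4, an inflammatory chemokine that attracts T cells and monocytes, had a level of 10.71 and 15.44 on the arrays labelled Ackr4ko, against 9.47 and 11.14 on those labelled WT. The folds were 2.36 in experiment 1 and 19.7 in experiment 2, and the groups overlapped. The log2 difference was 2.77 ± 1.25 (limma adjusted p = 0.9996). The SD between arrays of one genotype was 3.35 on those labelled Ackr4ko and 1.18 on those labelled WT (log2, n = 2 each).

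Ccl5, a ligand of CCR1 and CCR3 that recruits T cells, had a level of 9.07 and 8.47 on the arrays labelled Ackr4ko, against 6.49 and 5.79 on those labelled WT. Both Ackr4ko values lay above both WT values, by 5.97-fold in experiment 1 and 6.43-fold in experiment 2. On the array labelled WT of experiment 2, 0 of its 4 spots were well above background. That value is near the background, so the fold against it is uncertain. The log2 difference was 2.63 ± 0.39, with a limma unadjusted p of 0.0001 and an adjusted p of 0.145. With normexp background correction the difference was 1.62.

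Ccl22, a CCR4 ligand, had a level of 10.93 and 11.87 on the arrays labelled Ackr4ko, against 9.20 and 8.92 on those labelled WT. The groups did not overlap, and the within-experiment folds were 3.30 and 7.73. The log2 difference was 2.34 ± 0.40, with a limma unadjusted p of 0.000277 and an adjusted p of 0.210.

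Ccl17, the other CCR4 ligand, was measured only in experiment 1. Its level was 4.74 on the array labelled Ackr4ko, against 5.84 on the array labelled WT, where it was well above background on both. In experiment 2 it was 4.86 on the array labelled Ackr4ko and 4.64 on the array labelled WT, with 1 of 4 spots well above background on each. The log2 difference over both was -0.43 ± 0.43 (limma adjusted p = 0.9996), and it changed sign with quantile normalization, to 0.29.

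Xcl1, the ligand of XCR1 on cross-presenting dendritic cells, had a level of 5.31 and 9.12 on the arrays labelled Ackr4ko, against 5.44 and 6.36 on those labelled WT. The high value was that of experiment 2, 6.76-fold above the array labelled WT. There 0 of 4 spots were well above background, so the fold is uncertain. In experiment 1 the difference was -0.13, and over both it was 1.31 ± 1.00 (limma adjusted p = 0.9996). With normexp background correction the difference over both was 0.80.

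Cxcl10, the ligand of CXCR3 and a classical interferon-gamma target, was not measurable. Its 2 probes were well above background on 0 arrays by the rule of at least 50% of spots, and 1 of 4 spots of 1 probe passed on 1 array of each genotype. It was therefore not tested.

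The probes named for the Ackr4 ligands had smaller differences than those of Ccl3, Ccl4, Ccl5 and Ccl22, a contrast between genes that was not tested. For Ccl19 this contrast rests on a probe whose signal is uncertain in origin, as given below. Small differences were not particular to the Ackr4 ligands. Ccl17 had -0.43 ± 0.43 over both experiments, with 0.22 in experiment 2, and Xcl1 had -0.13 in experiment 1. Ccl19, a CCR7 ligand that guides cells into lymph node T zones, had a level of 7.01 and 7.09 on the arrays labelled Ackr4ko, against 6.68 and 6.81 on those labelled WT, by the probe from transcript base 22. On the array labelled WT of experiment 2, 2 of the 4 spots were well above background. The groups did not overlap, but the log2 difference of 0.31 ± 0.32 had a limma adjusted p of 0.9996. The second probe, from base 126, gave 6.05 and 6.27 on the arrays labelled Ackr4ko, against 6.19 and 5.81 on those labelled WT, with opposite signs in the 2 experiments. The third, from base 415, was well above background on 0 arrays.

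The base 22 probe of Ccl19 matches the window of the RefSeq promoter table from 131 to 72 bases before the Ccl19 start, outside the RefSeq transcript. The same letters also occur in the Gm12407 window, so signal from that probe is uncertain in origin. The base 126 probe crosses the RefSeq start, from 27 bases before it to base 32 after it.

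Ccl25, the CCR9 ligand that guides cells to the small intestine and thymus, had a level of 9.04 and 9.72 on the arrays labelled Ackr4ko, against 8.75 and 9.74 on those labelled WT, by the probe from base 953. The genotypes overlapped, and the log2 difference was 0.13 ± 0.43 (limma adjusted p = 0.9996). The probe from base 998 gave 6.97 and 7.12 on the arrays labelled Ackr4ko, against 6.62 and 7.39 on those labelled WT, again with opposite signs in the experiments. The other 2 probes of Ccl25 were well above background on 0 arrays.

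**Figure D2:**
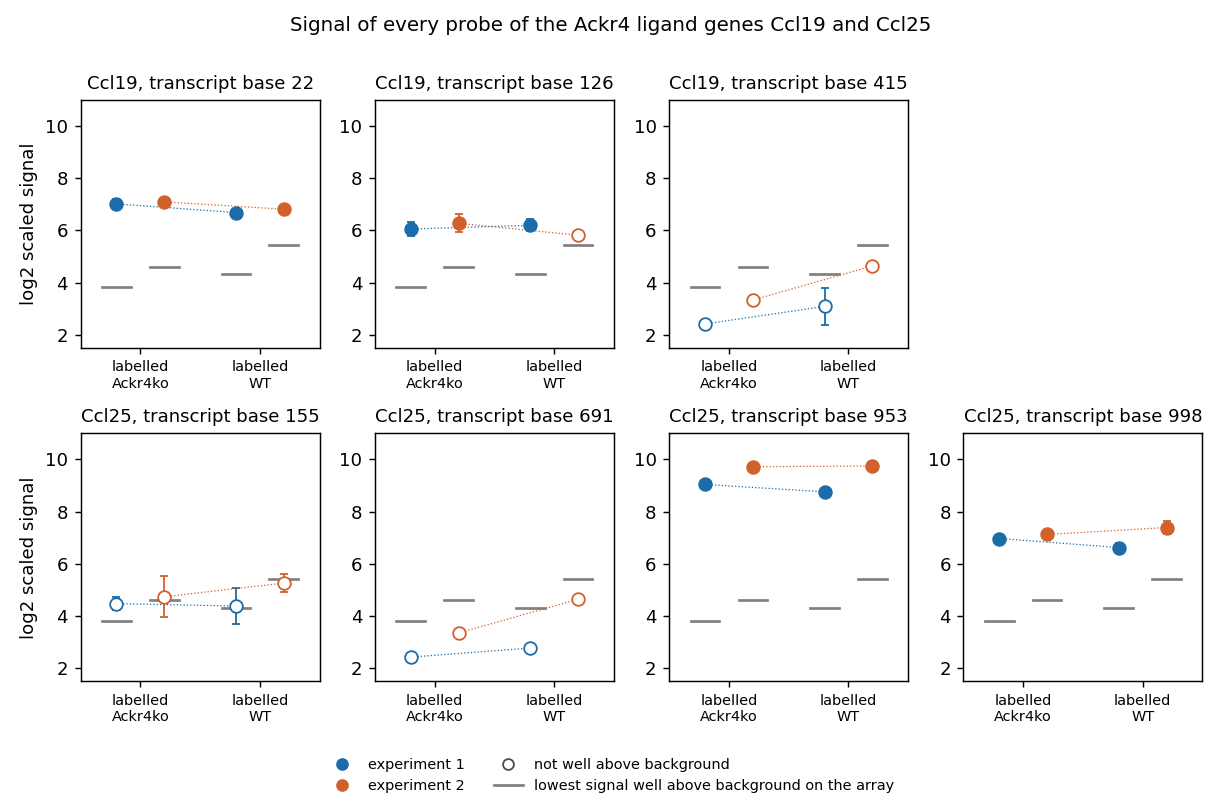
Log2 scaled signal of each probe of the Ackr4 ligands Ccl19 and Ccl25 on the arrays labelled Ackr4ko and labelled WT, with open points where the probe was not well above background. Only the Ccl19 probe from base 22 has both Ackr4ko points above both WT points among the probes measured on all 4 arrays, by 0.28 to 0.34 log2 units within an experiment.

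By limma without a block, 0 of the 8 tested members were called at an adjusted p under 0.05, against 0.0125% of all tested genes, and 3 had an unadjusted p under 0.05, against 4.58%. A difference of at least 2-fold in a shared direction in the 2 experiments was seen for 4, Ccl3, Ccl4, Ccl5 and Ccl22, against 1.79% of all genes. The array labelled Ackr4ko was at least 2-fold higher for 4 members in experiment 1, against 3.08%, and for 5 in experiment 2, against 6.08%. For 5 the array labelled Ackr4ko was higher in both experiments, against 33%. The groups did not overlap for 3 (Ccl5, Ccl19 and Ccl22), against 29%, and in each the arrays labelled Ackr4ko were the higher ones, against 19%. The median member difference was 1.83, beside 0.083 for all tested genes (0.79 in experiment 1 and 2.72 in experiment 2 for the members, -0.04 and 0.23 for all genes).

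With the experiment as a block, the labels' experiments pairing the arrays, 5 of the 8 members were called, against 3.33% of all genes: Ccl3 (adjusted p = 1.56e-09), Ccl4 (9.12e-13), Ccl5 (1.54e-11), Ccl22 (5.25e-09) and Xcl1 (0.00741), all higher on the arrays labelled Ackr4ko, against 2.04% of all genes. That limma fit has 1 residual degree of freedom and an infinite prior, so every gene shares one SE of 0.348. With quantile normalization and the block 0 members were called by limma and 4 had an unadjusted p under 0.05, the adjusted p of Ccl3, Ccl4, Ccl5, Ccl22 and Xcl1 being 0.339 to 0.654, while the differences of Ccl3, Ccl4, Ccl5 and Ccl22 were 2.25, 2.56, 2.61 and 2.27. With normexp correction and the block, added after seeing the data, Xcl1 was not called (0.80, limma adjusted p = 0.132). Over the 14 or 15 alternatives run for each, the limma adjusted p ranged from 2.20e-12 to 0.9999 for Ccl3, 2.10e-18 to 0.9999 for Ccl4, 1.54e-11 to 0.851 for Ccl5, 1.75e-11 to 0.851 for Ccl22 and 0.00741 to 1.00 for Xcl1.

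**Figure D3:**
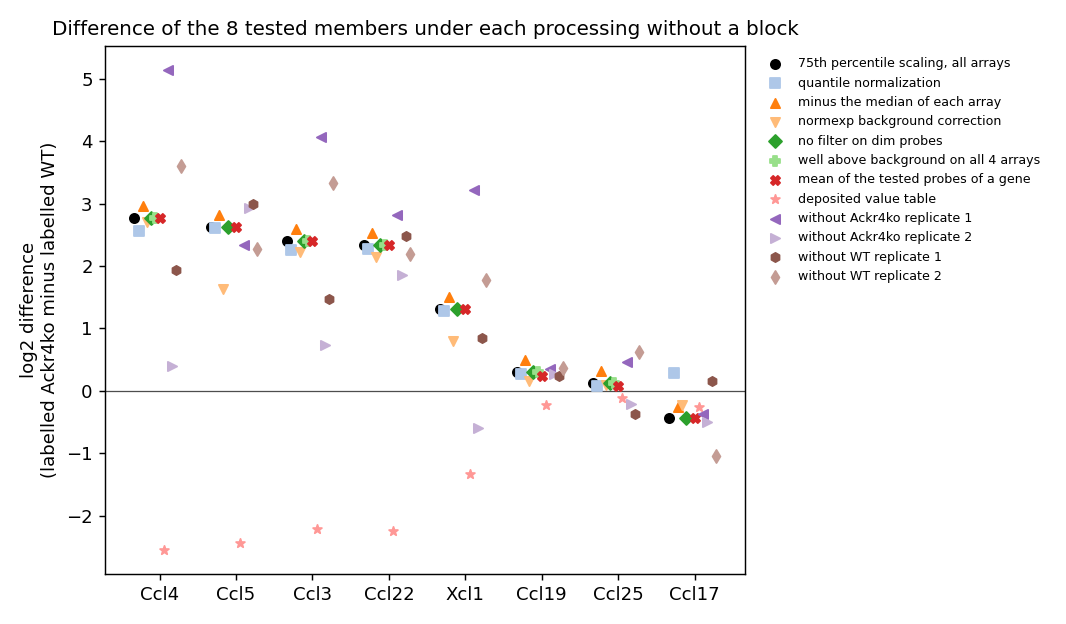
Log2 difference (labelled Ackr4ko minus labelled WT, y axis) of the 8 tested members (x axis) under each processing without a block, one symbol per setting. Ccl3, Ccl4, Ccl5 and Ccl22 stay above 0 except with the deposited value table, which lists each array under the other genotype and where they lie between -2.54 and -2.22.

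In the fit with the block, an experiment difference was called for Ccl3, Ccl4 and Xcl1. That fit gives every gene the same SE of 0.348 and has no term for a difference that varies by genotype. With genotype kept in the fit, the log2 difference of experiment 2 minus experiment 1 was 2.59 for Ccl3, 3.20 for Ccl4 and 2.37 for Xcl1 (limma adjusted p = 9.78e-11, 1.40e-16 and 6.62e-09), so 3 of 8 members passed, against 4.07% of all genes. Both genotypes had at least 2-fold more in experiment 2 for Ccl3 and Ccl4, 2 of 8 members against 0.883%, while 3 of 8, these and Xcl1, had it on the arrays labelled Ackr4ko whether or not on those labelled WT, against 7.45%. Within the arrays labelled Ackr4ko the difference was 3.33, 4.74 and 3.81, against 1.85, 1.67 and 0.92 within those labelled WT. Its size thus differed between the labels. With 1 array per genotype in each experiment, this cannot be told apart from variation between single arrays. For Xcl1 the array labelled WT of experiment 2 had 0 of 4 spots well above background. Ccl22, Ccl5, Ccl17, Ccl19 and Ccl25 did not pass. With quantile normalization 0 of the members passed in limma and 5 had an unadjusted p under 0.05, the limma adjusted p of these 3 genes being 0.321 to 0.332.

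**Figure D4:**
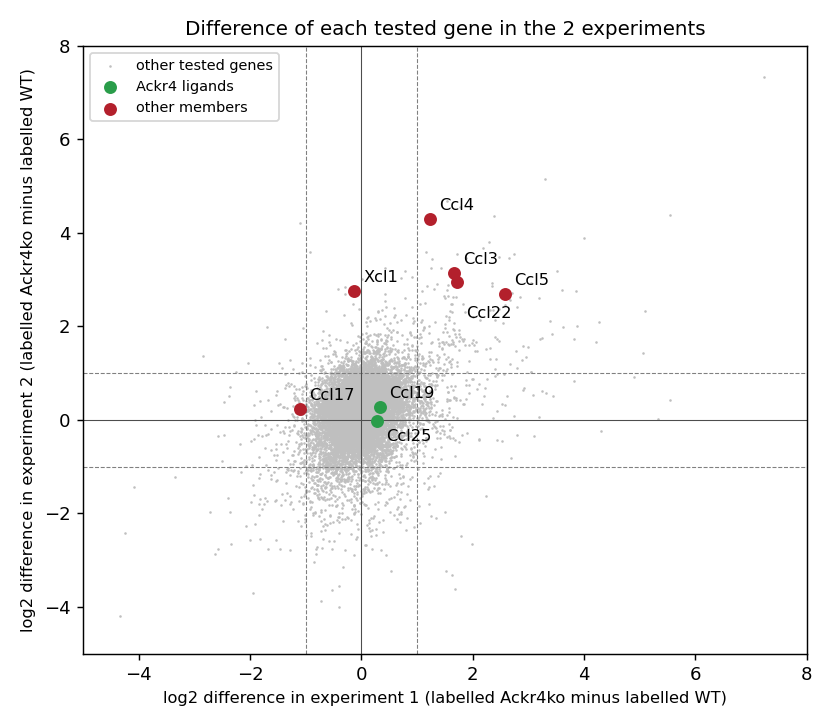
Each large point is a member and each small grey point another tested gene, with its log2 difference (labelled Ackr4ko minus labelled WT) in experiment 1 on the x axis and in experiment 2 on the y axis. Ccl3, Ccl4, Ccl5 and Ccl22 lie above 1 on both axes, Xcl1 above 1 only in experiment 2, and Ccl19 and Ccl25 near 0. Ccl17 lies at -1.09 in experiment 1 and 0.22 in experiment 2.

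The size of the Ccl3, Ccl4 and Xcl1 differences moved with the array left out. With 1 array left in a genotype, the spread came from the 2 arrays of the other genotype and from the prior over all genes, and the lone array was assumed to vary like them. Leaving out the array labelled Ackr4ko of experiment 2 gave 0.74 for Ccl3, 0.40 for Ccl4 and -0.59 for Xcl1, and leaving out that of experiment 1 gave 4.07, 5.14 and 3.22. Leaving out the array labelled WT of experiment 2, the one that stood apart, gave 3.33 for Ccl3, 3.61 for Ccl4, 2.28 for Ccl5 and 2.20 for Ccl22, of which Ccl3 and Ccl5 were called (limma adjusted p = 0.0271 and 0.0423). Leaving out the array labelled WT of experiment 1 gave 1.48 for Ccl3, 0.85 for Xcl1 and 2.98 for Ccl5, which was called (limma adjusted p = 0.0125). Over all 4 such fits Ccl22 stayed at 1.86 to 2.81.

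The genes whose 4 values lay closest to those of a member, by Euclidean distance of the centred log2 values over 4 arrays, were Cgas for Ccl22 (0.12), followed by Ankrd33b (0.31) and Dact3 (0.37). For Ccl3 they were Tyrobp (0.42), the adaptor of activating receptors on NK and myeloid cells, Guca1a (0.62) and Etnk2 (0.63). For Ccl4 they were Ccl3 (1.07), Tyrobp (1.13) and Etnk2 (1.28). Cgas was well above background on 3 arrays and Guca1a on 2. These distances are descriptions over 4 arrays, with no test.

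The other 30 chemokine ligands of the list held 28 on the array, of which 7 were tested and 21 were well above background on no array. By limma without a block 0 of the 7 were called and 2 had an unadjusted p under 0.05, against 4.58% of all genes, with a median difference of -0.03. Ccl9, a CCR1 ligand encoded on chromosome 11 between Ccl5 and Ccl3, had a level of 5.08 and 6.91 on the arrays labelled Ackr4ko, against 3.21 and 4.61 on those labelled WT. It was not well above background on either array labelled WT. With those values raised to the array's lowest signal well above background, Ccl9 was 2.19-fold higher on the arrays labelled Ackr4ko. Without that change its limma adjusted p was 0.687. Cx3cl1, the ligand of CX3CR1, had a difference of 0.54 in experiment 1 and 1.78 in experiment 2, and of 1.16 over both (limma adjusted p = 0.776). With the experiment as a block both passed in the limma fit, against 3.33% of all genes, but Ccl9 had entered the test only through the arrays labelled Ackr4ko, where it was high. Cxcl9 had a difference of -0.39 and was well above background on 2 arrays.

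Of 13 receptors of these ligands, 6 were tested, and 0 were called by limma, with 3 at an unadjusted p under 0.05, against 4.58% of all genes. Ccrl2, an atypical receptor, had a difference of 1.09 (7.67 and 7.37 on the arrays labelled Ackr4ko, against 6.59 and 6.27 on arrays labelled WT, limma adjusted p = 0.688). Cxcr3, the receptor of Cxcl10, had -0.91 (7.39 and 7.45 on the arrays labelled Ackr4ko, against 8.19 and 8.46 on arrays labelled WT). Ccr1, a receptor of Ccl3 and Ccl5, had -1.16 (6.19 and 4.81 on the arrays labelled Ackr4ko, against 6.53 and 6.80 on arrays labelled WT). The difference was -0.42 for Ackr2, which takes up inflammatory CC chemokines, and 0.20 for Ccr7, the receptor of Ccl19 (15.15 and 16.15 on the arrays labelled Ackr4ko, against 15.23 and 15.67 on arrays labelled WT). Ackr1, Ackr4, Ccr4, the receptor of Ccl17 and Ccl22, and Xcr1, that of Xcl1, were well above background on no array, and Ccr3, Ccr8 and Ccr9, the receptor of Ccl25, on 1. Blocked by experiment, 1 of the 6 was called, Ccr1, which was lower on the arrays labelled Ackr4ko (limma adjusted p = 0.028), against 3.33% of all genes called either way. Ccr1 was well above background on 2 arrays, with a difference of -0.34 in experiment 1 and -1.99 in experiment 2.

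NF-kappaB and antigen receptor response genes were 20 of 20 tested, with 0 called by limma and a median difference of 0.38. An unadjusted limma p under 0.05 was seen for 1, against 4.58% of all genes. Traf1, an NF-kappaB target, had 14.85 and 15.10 on the arrays labelled Ackr4ko, against 13.61 and 13.79 on those labelled WT (1.27, limma adjusted p = 0.510). Nfkb2 and Tnfaip3 had 0.74 and 0.64. With the experiment as a block 3 of the 20 passed, against 3.33% of all genes. Each was higher on the arrays labelled Ackr4ko, against 2.04%: Traf1, Egr1 and Nr4a1, the last 2 of which had the opposite sign in experiment 1 (-0.29 and -0.93). Of the interferon response genes, 17 of 20 were tested, 0 were called by limma, 1 had an unadjusted p under 0.05, against 4.58%, and the median was -0.18. The 3 with the smallest p were Ifih1 (0.84), Oasl2 (-1.51) and Oas2 (-0.94), and with the block only Oasl2 passed, against 3.33% of all genes. Oasl2 and Oas2 were each well above background on 2 arrays. Oasl2 had a difference of -0.14 in experiment 1 and -2.88 in experiment 2. There the array labelled Ackr4ko gave 3.42, under its lowest signal well above background of 4.60.

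Markers of other cells that could be present gave these values. Of 10 dendritic cell markers, 5 were tested, and 4 of them were higher on the array labelled Ackr4ko in both experiments, against 33% of all genes. By limma 0 of the 5 were called, 4 had an unadjusted p under 0.05, against 4.58%, and the median difference was 1.07. Flt3, a growth factor receptor, had 13.38 and 12.97 on the arrays labelled Ackr4ko, against 12.08 and 12.13 on arrays labelled WT, and Zbtb46, a transcription factor of conventional dendritic cells, had a difference of 1.00. With the experiment as a block 2 of the 5 were called, against 3.33% of all genes: Fscn1 and Batf3 (limma adjusted p = 9.95e-06 and 1.64e-12). Both are among those 4 and were well above background only on the arrays labelled Ackr4ko. They entered the test through the arrays where they were high, so these counts and calls partly follow from the filter. Siglech, a plasmacytoid dendritic cell receptor, had 15.66 and 16.03 on the arrays labelled Ackr4ko, against 15.87 and 15.83 on arrays labelled WT, a difference of -0.01, and its signal makes up most of the summed level. The summed level came to 63490 and 76343 on the arrays labelled Ackr4ko, against 64861 and 63213 on arrays labelled WT. Itgax, Clec9a, Cd209a, Clec10a and Xcr1 were well above background on no array. With dim values raised to the array's lowest signal well above background, Fscn1 and Batf3 were 2.78-fold and 2.99-fold higher on the arrays labelled Ackr4ko. Without that change and without the block, their limma adjusted p was 0.236 and 0.418. The part of dendritic cells in the chemokine differences was not tested. Of 9 NK cell markers, Prf1 and Nkg7 were tested, Ncr1, Klrb1c, Gzma and 4 others were well above background on no array, and their sum came to 2566 and 8419 on the arrays labelled Ackr4ko, against 3258 and 3576 on arrays labelled WT. This sum rests on the tested probes of Prf1 and Nkg7 and was highest on the array labelled Ackr4ko of experiment 2. Ccl3, Ccl4, Ccl19, Ccl22 and Xcl1 were also highest on that array. Ccl5 was highest on the array labelled Ackr4ko of experiment 1, and Ccl17 and Ccl25 on arrays labelled WT. The part of NK cells in the result was not tested. With 8 of 10 T cell markers tested, their sums were 4928 and 6204 on the arrays labelled Ackr4ko, against 6268 and 7949 on arrays labelled WT, with Cd8a and Cd8b1 well above background on no array. Cd5 had 10.67 and 10.13 on the arrays labelled Ackr4ko, against 11.44 and 11.64 on arrays labelled WT, and was the 1 T cell marker called with the block (-1.15, limma adjusted p = 0.0324), against 3.33% of all genes. Much of the gap between the T cell sums comes from Cd5. Of the 8 tested T cell markers, 3 were higher and 3 lower on the array labelled Ackr4ko in both experiments, with a median difference of 0.04. Cd3d, Cd3e and Cd4 had 0.01, 0.09 and 0.07. With 5 of 10 macrophage and monocyte markers tested, their sums were 43146 and 33742 on the arrays labelled Ackr4ko, against 53377 and 55837 on arrays labelled WT, with Lyz2, C1qa and Cd14 well above background on no array. Most of the gap between these sums comes from Mpeg1 (14.66 and 14.00 on the arrays labelled Ackr4ko, against 15.11 and 15.09 on arrays labelled WT). Of the 5 markers, 2 were higher and 2 lower on the array labelled Ackr4ko in both experiments. Of the 3 tested stromal and endothelial markers, Pecam1 had a difference of -1.09 (limma unadjusted p = 0.0443), and of the 2 tested neutrophil and mast cell markers, Ly6g had 0.72 (limma unadjusted p = 0.0526). With or without the block, 0 of these 5 were called by limma, nor was any B cell, macrophage or NK cell marker.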

How the data were processed

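RNA from 2 cultures per genotype was hybridised to 4 Agilent 1-colour arrays. The deposited scanner files hold the spot intensity that the authors obtained using Feature Extraction 10.7.3.1 (file headers). The authors' value table holds 1 normalized intensity per probe, and how it was made is not given in the sources used here. The headers show 1 slide and 1 scan session for all arrays. Control and outlier spots were left out, log2 of the processed signal was scaled to each array's 75th percentile, and the 4 spots of a probe were averaged. No spot was saturated (0). Probe names were updated through a GRCm38.p6 RefSeq gene table, and members were taken by the name in the files.

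The genotype difference was fitted by lmFit and eBayes of limma (version 3.58.1, R version 4.3.3) without a block, and two-sided p-values were adjusted by Benjamini-Hochberg over all 15967 tested genes, at a threshold of 0.05. The series text states 2 independent experiments, so replicate numbers pair the arrays, and deviations of arrays of the same experiment correlated at 0.42. The number of arrays limits the precision, and an exact permutation test of 2 against 2 cannot go below p = 0.333. The scripts were tested on simulated data. All members were named, and, from the lists of other chemokine ligands, receptors, NF-kappaB and antigen receptor response and interferon response, the called genes or the 3 with the smallest p, the tested receptors, of which 1 is not reported here, and the 3 genes nearest to each member that was well above background on all 4 arrays and spanned at least 1 log2 unit. The members and lists were chosen with earlier results of these data known. Alternatives covered normalization, background correction, filters, probe averaging, the value table, the block and each array left out. Normexp with the block and other detection rules were added after seeing the data. For a gene above background in 1 group only, each dim value was raised to the array's lowest signal well above background where it lay under it. The fold from these values depends on that choice and is not a strict bound.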

Additional observations from a re-analysis of the deposited data

How the results depend on the processing

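By limma, 2 genes were called, and 4 members differed at least 2-fold in a shared direction in the 2 experiments. The replicate block by experiment called 532 genes and 5 members, median scaling 188 and 4, normexp correction 19 and 1 (Ccl22, adjusted p = 0.0105, in a range of 1.75e-11 to 0.851 over its alternatives), and normexp with the block, chosen after seeing the data, 345 and 4. Quantile normalization and the value table called 1 gene each, and 0 each with the block, where 1445 and 1455 genes had an unadjusted p under 0.05. The limma fit without a filter on dim probes and the fit of probes above background on all 4 arrays called 0, with 296 and 526 genes at an unadjusted p under 0.05. Leaving out 1 array, with the lone array of its genotype assumed to vary like the others, gave 1 to 122 genes called and 0 to 2 members. Such 2-fold genes numbered 286, but 115 with normexp, 450 without the filter and 138 with all 4 arrays, where 3 members were left since Ccl5 was not tested. Median scaling moved the median of all genes to 0.27. For the experiment difference, limma with quantile normalization called 0 members, with 5 at an unadjusted p under 0.05.

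Signs turned as follows. With the value table, with or without the replicate block, the differences were -2.22 for Ccl3, -2.54 for Ccl4, -2.44 for Ccl5, -2.24 for Ccl22, -1.32 for Xcl1, -0.23 for Ccl19 and -0.11 for Ccl25, as that table lists each array under the other genotype. Ccl17 kept its sign with the value table, at -0.26. Quantile normalization, with or without the block, gave 0.29 for Ccl17, and normexp an experiment difference of 0.18 for Ccl17. Without the array labelled Ackr4ko of experiment 2 Xcl1 was -0.59 and Ccl25 -0.21, and without the array labelled WT of experiment 1 Ccl17 was 0.16 and Ccl25 -0.37. The cause of these changes was not tested. With an array left out, the difference ranged from -1.03 to 0.16 for Ccl17, 0.24 to 0.37 for Ccl19, -0.37 to 0.62 for Ccl25, 2.28 to 2.98 for Ccl5 and -0.59 to 3.22 for Xcl1. By detection, 6 probes passed on all 4 arrays, 7 with at least 1 spot and 5 with all spots required. No slide or scan block could be fitted, with 1 of each. Signal near background limits Ccl17, Xcl1 and Cxcl10.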
